A study of Mus musculus with 24 samples.

Results

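Polyamine metabolism was described here through 10 genes: the synthesis enzymes Odc1, Amd1, Srm and Sms, the breakdown enzymes Smox, Sat1 and Paox, and the regulators Azin1, Oaz1 and Oaz2. They were found by symbol among the 47643 genes of the deposited count table, each with a single gene ID, and all 10 passed the filter on low counts. The samples were plantaris muscles, a fast muscle of the calf, from wild type C57BL/6 mice. The control group held 11 samples from mice that breathed normal air, and the other held 13 samples from mice kept under tobacco smoke exposure over 16 weeks. The labels do not say that each sample came from a different mouse. Each sample was measured by 3′-end RNA sequencing. The series title concerns chronic activity of the aryl hydrocarbon receptor (AhR), which binds components of smoke. The labels used here give no age, sex or time of day at collection, and name 1 genotype and 1 strain in both groups.

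Polyamines (putrescine, spermidine and spermine) are small, positively charged molecules that bind RNA and are needed for growth and translation. Ornithine decarboxylase (Odc1) makes putrescine, S-adenosylmethionine decarboxylase (Amd1) supplies the aminopropyl group, and spermidine synthase (Srm) and spermine synthase (Sms) add it in turn. Spermine oxidase (Smox) turns spermine back into spermidine, while the acetyltransferase Sat1 and the oxidase Paox form the other route back. Antizymes (Oaz1 and Oaz2) bind the decarboxylase, send it to the proteasome and limit uptake, and the antizyme inhibitor Azin1 binds antizymes in its place. In skeletal muscle, levels of Amd1 and Smox transcripts are known to follow anabolic signals and to fall in wasting.

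Under smoke, Smox and Odc1 were higher and Oaz2 was lower. Smox was 1.57-fold higher, Odc1 1.26-fold higher, and Oaz2 stood at 0.811 of its level in air. These 3 of 10 members passed an adjusted p under 0.05, against 1.92% of the 10159 genes tested (0.728% of tested genes higher, 1.19% lower). The other 7 members did not pass. Over the 10 members the median log2 fold change was 0.012, beside 0.0066 over all tested genes, since 5 members had positive and 5 negative values. Their median size of change was 0.23, beside 0.11 over all tested genes. The call for Odc1 was the weakest of the 3 and was lost when any of 17 of the 24 samples was left out, and that for Smox was lost without air replicate 8. Without a covariate, 5 of the 10 members and 1575 of the 10159 tested genes had an unadjusted p under 0.05 by edgeR. With the clock index as a covariate edgeR called none of the 3, and 53 tested genes in place of 195. The unadjusted p was then under 0.05 for 3 of 10 members and 1518 of 10159 genes. The blood score gave none of the 3 and 56 genes, and 4 of 10 members and 1241 of 10159 genes by unadjusted p. With the myelin score Smox alone of the 3 was called, among 68 genes. These scores correlated with group at r = 0.76, −0.56 and 0.58 in that order.

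Total counts per sample ranged from 2515697 to 4528845, so that 3 counts in a sample corresponded to 0.662 to 1.19 CPM, the unit used below, which scales counts to a common total after TMM normalization. The 8 fast fibre markers were abundant, with summed levels of 136016 to 214642 CPM in air and 143022 to 182196 CPM in smoke and log2 fold changes between −0.10 and 0.16. Some marker genes of blood, of myelin and of the circadian clock differed between the groups, and beyond the covariate fits given beside the members their part in the results was not tested. Blood markers summed to 486 to 1444 CPM in air and 369 to 883 CPM in smoke, with 3 of 5 called lower. Schwann cell and myelin markers summed to 118 to 274 CPM in air and 176 to 852 CPM in smoke, with 3 of 5 called higher. No marker of these lists was at 0 over all samples. A clock index, the mean log2 CPM of 6 genes that peak with Dbp minus that of 3 genes opposite to it, ran from 0.70 to 1.92 in air and from 1.19 to 2.88 in smoke. Of these, Dbp, Per3 and Nr1d2 were called higher and Nfil3 lower, and the other 5 were not called. Bulk counts cannot tell fewer cells of a type from less RNA per cell.

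The promoters of the 3 called members are shown because the series concerns a DNA-binding receptor and these are the members whose levels differed. RefSeq (GRCm38.p6) gave promoter windows for 8 of the 10 members, each 300 bases long, and the stretches printed are the parts before the start site that lie outside every annotated exon. Capitals mark GCGTG on either strand, the core of the element that AhR binds. All are written 5′ to 3′ on the plus strand. The stretch of Odc1 is chr12:17544623-17544793, that of Smox is chr2:131491654-131491763 and that of Oaz2 is chr9:65676298-65676547. GENCODE places the earliest start of Smox and of Oaz2 upstream of these stretches, which then lie within an intron of a longer transcript.
Odc1: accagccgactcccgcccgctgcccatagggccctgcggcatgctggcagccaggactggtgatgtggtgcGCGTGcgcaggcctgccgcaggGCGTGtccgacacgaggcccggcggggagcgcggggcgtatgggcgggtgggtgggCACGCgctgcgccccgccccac
Smox: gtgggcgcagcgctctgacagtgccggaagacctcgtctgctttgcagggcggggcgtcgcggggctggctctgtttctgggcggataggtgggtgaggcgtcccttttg
Oaz2: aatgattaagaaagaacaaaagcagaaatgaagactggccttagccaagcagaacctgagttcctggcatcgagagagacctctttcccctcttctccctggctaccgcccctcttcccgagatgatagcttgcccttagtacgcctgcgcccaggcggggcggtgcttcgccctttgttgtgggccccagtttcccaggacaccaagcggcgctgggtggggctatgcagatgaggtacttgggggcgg
Odc1 held 3 matches to GCGTG in its window, and Smox and Oaz2 held 0. Of 32851 promoter windows of this length, 32.4% held at least 1 match. The E-box CACGTG, a site of clock and MYC factors, which ends in the same CGTG but neither contains GCGTG nor lies within it, was found in none of these 3 windows, and 7.15% of all windows held it. Among the other members with a window, Amd1, Oaz1, Paox and Sms had GCGTG, and only Sms had CACGTG. A match is a run of letters and was not tested as a binding site.

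**Figure D1:**
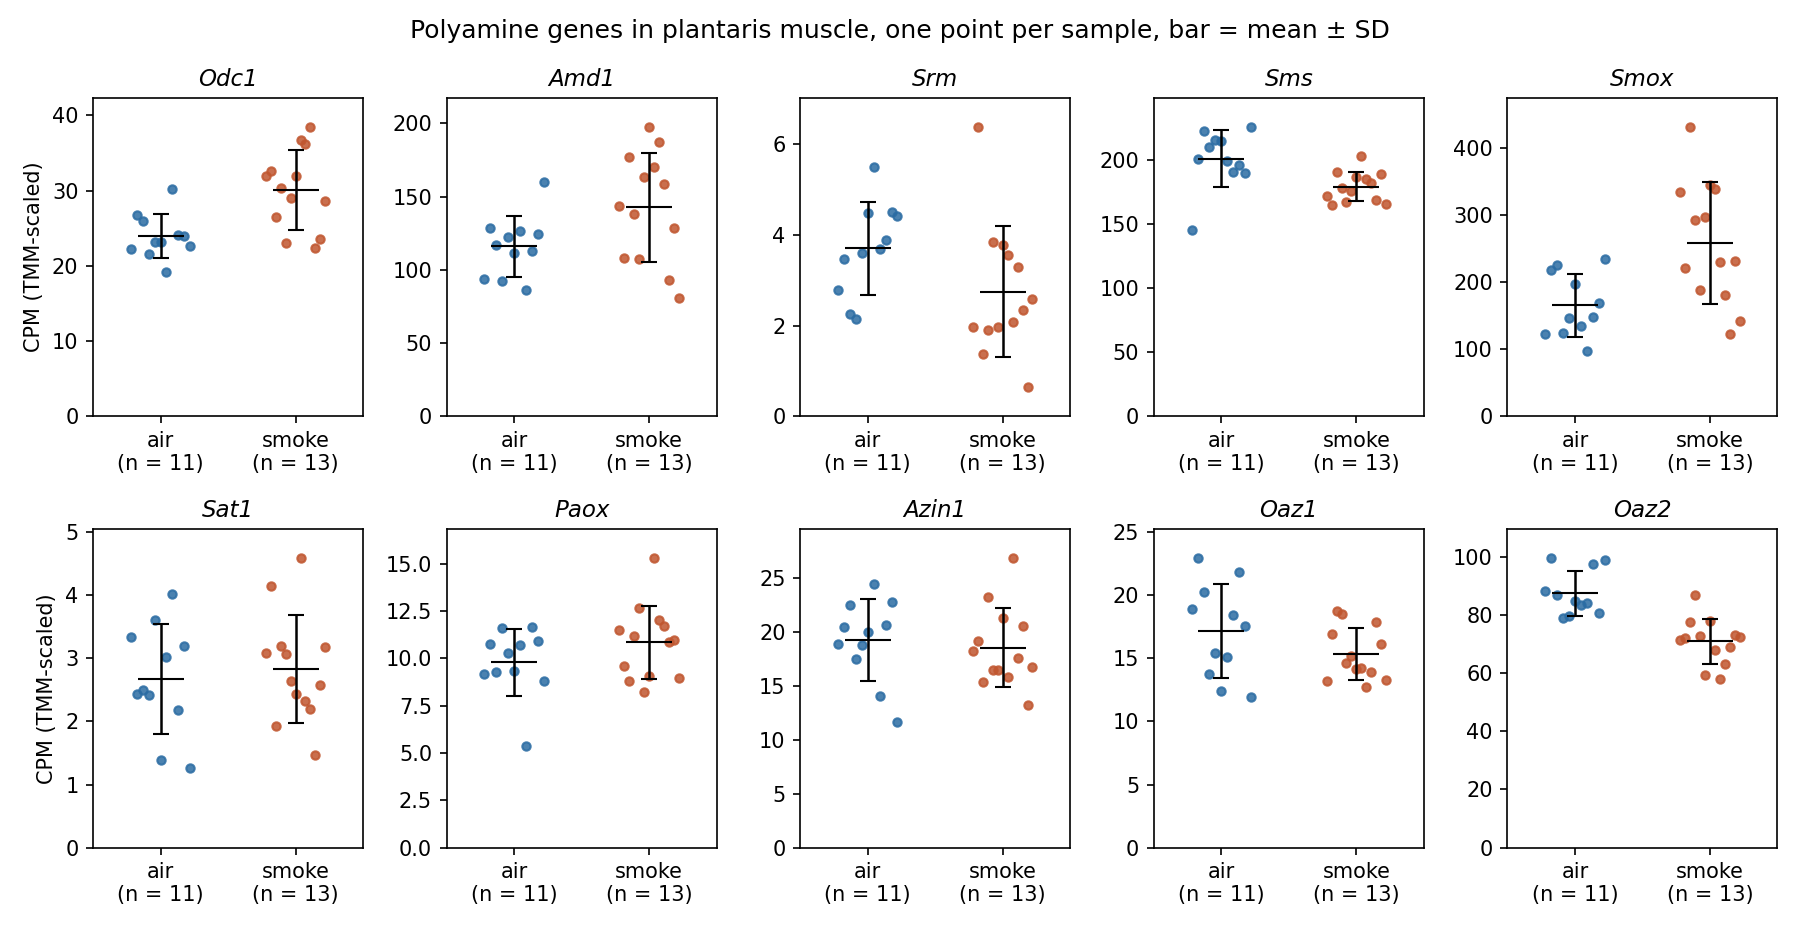
Level of each of the 10 members in CPM on TMM-scaled libraries (vertical axes, each from 0), with 1 point per sample, for air (n = 11) and smoke (n = 13), and bars for the mean ± SD. All 13 smoke samples had less Oaz2 than the air mean, while 11 of 13 had more Smox and 10 of 13 more Odc1.

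Among the synthesis enzymes, Odc1 (ENSMUSG00000011179, chromosome 12, 17544794 to 17551505, plus strand, GRCm38) makes the first product of the pathway. Its lowest, median and highest levels were 19.2, 23.2 and 30.2 CPM in air and 22.3, 30.3 and 38.4 CPM in smoke. The groups overlapped, although 7 of 13 smoke samples exceeded every air sample. The highest levels were in smoke replicates 10, 8 and 9 and the lowest smoke level was in replicate 11. The mean was 23.9 ± 2.92 CPM under air (SD, n = 11) and rose to 30.1 ± 5.26 CPM under smoke (SD, n = 13). By edgeR, the log2 fold change was 0.34, with SE 0.091, a 95% interval from 0.15 to 0.52 and an adjusted p of 0.0417. Leaving out samples in turn gave edgeR adjusted p from 0.0208 to 0.0829, and the call was kept without air replicate 2 or 8 or without smoke replicate 3, 5, 11, 12 or 13. The call was also lost by limma voom (adjusted p = 0.0518) and without the filter on low counts (edgeR adjusted p = 0.0656). The small RNA gene Gm22748 within Odc1 had 3 counts over all samples.

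Of 20 relations between a member and the clock index, 10 in each group, the relation of Odc1 in smoke was the only one to pass adjustment. Within smoke, its log2 CPM followed the index with Pearson's r = 0.83 (n = 13, permutation p = 0.00037, adjusted p = 0.0074) and Spearman's rho = 0.84 (permutation p = 0.00064, adjusted p = 0.0128). With the 2 samples of most extreme index removed, r was 0.69. Within air, r was −0.20 (n = 11, permutation p = 0.559, adjusted p = 0.745) and rho was −0.24 (permutation p = 0.487, adjusted p = 0.811), and with the 2 samples of most extreme index removed r was 0.22, of the opposite sign. The difference between the groups in r was not tested. With the index as a covariate, the log2 fold change of Odc1 was 0.049 (SE 0.13, edgeR adjusted p = 0.911), and only smoke replicates 5 and 11 had an index within the range of air. With the blood score it was 0.29 (edgeR adjusted p = 0.254) and with the myelin score 0.34 (edgeR adjusted p = 0.177).

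**Figure D2:**
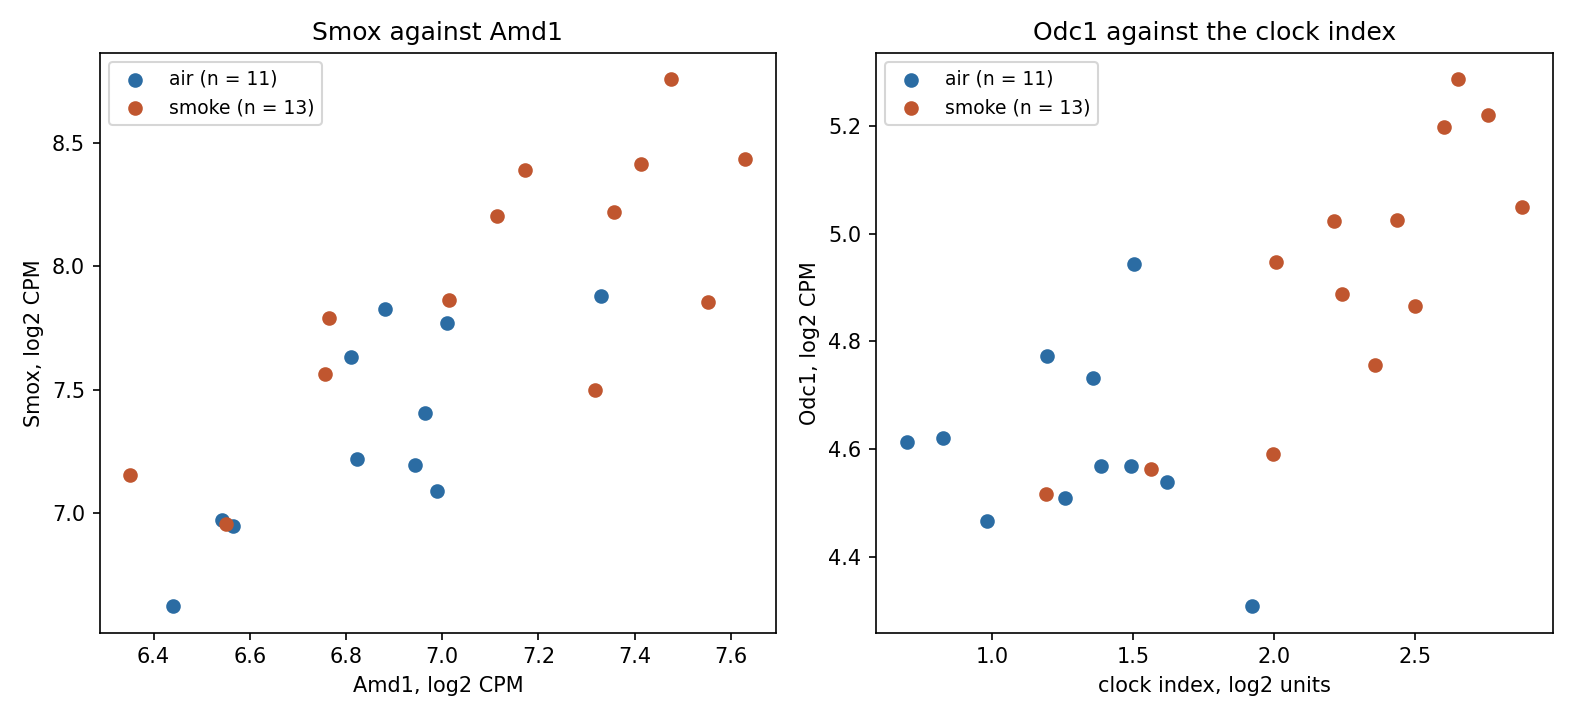
Left, Smox against Amd1 in log2 CPM; right, Odc1 in log2 CPM against the clock index in log2 units, with 1 point per sample in air (n = 11) and smoke (n = 13). Smox and Amd1 had r = 0.78 in each group, which did not pass adjustment, and Odc1 had r = 0.83 with the index in smoke and −0.20 in air, a difference that was not tested.

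Amd1 (ENSMUSG00000075232, chromosome 10, 40287458 to 40302186, minus strand), which commits S-adenosylmethionine to the pathway, was at 86.2, 117 and 160 CPM in air (lowest, median, highest) and at 81.1, 144 and 198 CPM in smoke. Smoke samples lay on both sides of the air range, with 5 of 13 above it and 1 below it. The means were 116 ± 20.7 and 143 ± 37.1 CPM. The log2 fold change was 0.30 with SE 0.12 (edgeR unadjusted p = 0.0142, adjusted p = 0.179), so that Amd1 did not pass. It was 0.016 with the clock index as a covariate (edgeR adjusted p = 0.984), 0.22 with the blood score (edgeR adjusted p = 0.574) and 0.46 with the myelin score (edgeR adjusted p = 0.110). Reads of Amd1 and its near-identical relative Amd2 may be divided between them, and Amd2 held 35 counts over all samples beside 10978 for Amd1.

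Srm and Sms, the 2 aminopropyl transferases, both had negative values and neither passed. Sms (ENSMUSG00000071708, chromosome X, 157443855 to 157492287, minus strand) was at 145, 200.2 and 225 CPM in air and at 164, 178 and 203 CPM in smoke, and 12 of the 13 smoke values were under the mean of air. Its log2 fold change was −0.16 (SE 0.057, edgeR unadjusted p = 0.00663, adjusted p = 0.127). Air replicate 1 was the lowest sample of all, and without it the value was −0.20 (edgeR adjusted p = 0.0218). Srm (ENSMUSG00000006442, chromosome 4, 148591503 to 148594993, plus strand) had only 2 to 20 counts per sample. It averaged 3.70 ± 1.02 CPM under air and 2.75 ± 1.45 CPM under smoke, with a log2 fold change of −0.42 and an interval from −0.89 to 0.048 (edgeR adjusted p = 0.390). With the clock index as a covariate its log2 fold change was −0.87 with SE 0.36 (edgeR adjusted p = 0.236).

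Among the breakdown enzymes, Smox (ENSMUSG00000027333, chromosome 2, 131491496 to 131525922, plus strand) gave the largest fold change of the members. Its lowest, median and highest levels were 98.0, 148 and 235.2 CPM in air and 124, 232.2 and 432 CPM in smoke. The groups overlapped, with 6 of 13 smoke samples above every air sample. Smoke replicate 3 was highest, and smoke replicates 11 and 13, also the lowest smoke samples for Amd1, were within the lower part of the air range. The mean was 166 ± 46.9 CPM under air and rose to 259 ± 90.6 CPM under smoke. By edgeR, the log2 fold change was 0.65, with SE 0.16, a 95% interval from 0.32 to 0.97 and an adjusted p of 0.0259. Only 90 of the 10159 tested genes (0.886%) had a fold change at least this large in size, Smox included.

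Leaving out air replicate 8, the sample with the lowest Smox level, gave a log2 fold change of 0.59 and an edgeR adjusted p of 0.0517, and the call stood without any other single sample. With the clock index as a covariate the log2 fold change was 0.34 (SE 0.26, edgeR adjusted p = 0.565). It was 0.46 with the blood score (SE 0.20, edgeR adjusted p = 0.325) and 0.81 with the myelin score (SE 0.18, edgeR adjusted p = 0.0221). Within groups, the relation of Smox to the clock index did not pass, with r = 0.37 in smoke (permutation p = 0.211, rho 0.099 with permutation p = 0.751, and r = −0.27, of the opposite sign, with the 2 samples of most extreme index removed) and r = 0.0011 in air (permutation p = 0.998, rho −0.027 with permutation p = 0.947).

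Sat1 and Paox, the enzymes of the acetylation route, did not pass. Sat1 (ENSMUSG00000025283, chromosome X, 155213132 to 155216449, minus strand) was the member with the lowest mean in air, averaging 2.67 ± 0.870 CPM under air and 2.83 ± 0.855 CPM under smoke, where Srm was lower, from 4 to 18 counts per sample. Its log2 fold change was 0.076, with an interval from −0.33 to 0.49 (edgeR adjusted p = 0.909), and over the 18 fits without 1 sample in which it passed the filter the value ran from 0.0034 to 0.14. With the clock index as a covariate it was −0.30 (SE 0.32), of the opposite sign, and with the blood and myelin scores 0.049 and 0.039. Paox (ENSMUSG00000025464, chromosome 7, 140115799 to 140137224, plus strand) averaged 9.80 ± 1.77 CPM under air and 10.8 ± 1.94 CPM under smoke, with a log2 fold change of 0.14 and an interval from −0.11 to 0.38 (edgeR adjusted p = 0.645). It was 0.077 without air replicate 8, 0.083 without smoke replicate 8 and 0.21 with the clock index as a covariate, none of them called. The antisense gene Echs1 overlaps Paox, and whether counting used strand is not given in the sources used here, so the counts of Paox are uncertain.

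Among the regulators, Oaz2 (ENSMUSG00000040652, chromosome 9, 65668001 to 65690300, plus strand), the second antizyme, was the most clearly separated member. Its lowest, median and highest levels were 78.9, 84.7 and 99.4 CPM in air and 57.9, 72.1 and 86.7 CPM in smoke. The groups overlapped only through smoke replicate 4, since the other 12 smoke samples lay below every air sample. The mean was 87.4 ± 7.71 CPM under air and fell to 70.8 ± 7.81 CPM under smoke. By edgeR, the log2 fold change was −0.30, with SE 0.063, a 95% interval from −0.43 to −0.17 and an adjusted p of 0.00773, and Oaz2 ranked 40 by p among the tested genes. Leaving out any sample kept the call, with edgeR adjusted p from 0.00319 to 0.0167. The log2 fold change was −0.25 with the clock index as a covariate (SE 0.098, edgeR adjusted p = 0.220). It was −0.30 with the blood score (SE 0.078, edgeR adjusted p = 0.0724) and −0.27 with the myelin score (SE 0.079, edgeR adjusted p = 0.0992), so the size changed little and the call was lost.

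Oaz1 (ENSMUSG00000035242, chromosome 10, 80826656 to 80829290, plus strand), the first antizyme, averaged 17.1 ± 3.71 CPM under air and 15.3 ± 2.08 CPM under smoke. Its log2 fold change of −0.16 had an interval from −0.38 to 0.053 (edgeR adjusted p = 0.498), which includes the value of Oaz2. With covariates it was 0.055 (SE 0.16) with the clock index, of the opposite sign, −0.092 with the blood score and −0.15 with the myelin score. The level of Oaz1 may be affected by near-identical copies elsewhere in the genome, of which the copy named Oaz1-ps held 16 counts. Azin1 (ENSMUSG00000037458, chromosome 15, 38487427 to 38519266, minus strand) averaged 19.3 ± 3.78 CPM under air and 18.5 ± 3.67 CPM under smoke, with a log2 fold change of −0.053 and an interval from −0.28 to 0.18 (edgeR adjusted p = 0.882), and over the 24 fits without 1 sample the value ran from −0.11 to −0.015. It was −0.011 with the clock index as a covariate, −0.076 with the blood score and 0.030 (SE 0.14), of the opposite sign, with the myelin score. Gm49077 overlaps Azin1 antisense and has no counts of its own in the deposited data, unlike Echs1 with 7983. Whether reads of Gm49077 affect the counts of Azin1 is uncertain.

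**Figure D3:**
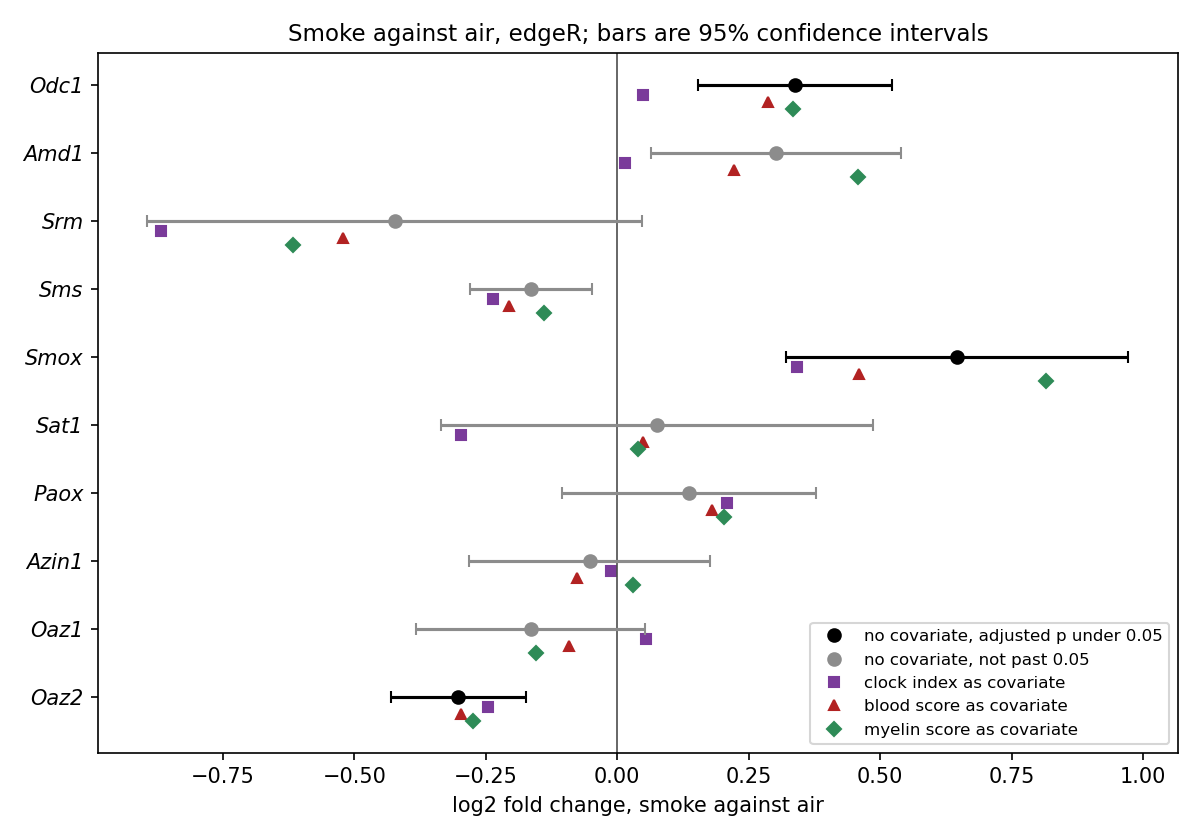
Log2 fold change of each member, smoke against air (horizontal axis), with 95% confidence intervals from edgeR, in black where the adjusted p was under 0.05 and in grey otherwise. Smaller symbols give the value with the clock index, the blood score or the myelin score as a covariate, without intervals. Odc1 moved from 0.34 to 0.049 (SE 0.13) with the clock index. Oaz2 stayed between −0.30 and −0.25 in all 3 (SE 0.098 with the clock index). The index correlated with group at r = 0.76, and the difference between the 2 genes was not tested.

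Because 3′-end reads are given about once per transcript, levels of different genes can be set side by side in CPM without division by length, within the limits of how well each 3′ end is annotated. In air the order of the mean levels was Sms (201 CPM), Smox (166), Amd1 (116), Oaz2 (87.4), Odc1 (23.9), Azin1 (19.3), Oaz1 (17.1), Paox (9.80), Srm (3.70) and Sat1 (2.67). Ranges over the air samples overlapped for all neighbours in this order except Oaz2 with Odc1 and Oaz1 with Paox. In smoke Smox took the first place at 259 CPM, above Sms at 179 CPM, although their ranges over the smoke samples overlapped. Of the antizymes Oaz2 had more counts than Oaz1, whose reads its copies may take, and of the synthesis enzymes Sms and Amd1 had the most.

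The members also differed in how much they varied among samples. Smox was the most variable of the well-counted members, with a coefficient of variation of 28.3% in air and 35.04% in smoke against 4.33% and 3.66% from counting alone. Its SD of log2 CPM in smoke, 0.54, lay at percentile 93.4 of all tested genes. Sms was among the steadiest genes in smoke, with an SD of 0.092 at percentile 1.54, and in air its SD was 0.17 at percentile 17.0. Its coefficient of variation was 11.0% in air and 6.43% in smoke, against 3.82% and 4.10% from counting alone. The level of Sms was at percentile 94.9, and the SD percentiles were not matched for level. Oaz2 was steady in both groups, with coefficients of variation of 8.83% and 11.03%. For Srm, Sat1 and Paox in air, counting alone gave 28.9%, 35.4% and 17.7%, close to the observed 27.6%, 32.6% and 18.1%. In smoke, Srm varied by 52.7%, above the 38.4% from counting, and its SD of log2 CPM lay at percentile 97.6 of all tested genes.

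Pairs of members were then correlated across samples within each group, 45 pairs in air and 45 in smoke. By permutation tests, 0 of the 90 correlations passed adjustment, and 5 had an unadjusted p under 0.05. The largest joined Amd1 and Smox, with r = 0.78 in smoke (permutation p = 0.00192, adjusted p = 0.1035) and rho = 0.76 (permutation p = 0.00384, adjusted p = 0.196). In air r was also 0.78 (permutation p = 0.00455, adjusted p = 0.137) and rho was 0.70 (permutation p = 0.0207, adjusted p = 0.466). With the 2 samples of most extreme Amd1 level removed, r was 0.55 in smoke and 0.56 in air. Amd1 and Sms had r = 0.76 in smoke (permutation p = 0.0023, adjusted p = 0.1035; rho 0.75, permutation p = 0.00436, adjusted p = 0.196), and 0.69 without 2 samples. In air their r was 0.50 (permutation p = 0.123, adjusted p = 0.623) and rho was 0.37 (permutation p = 0.262, adjusted p = 0.857). Smox and Sat1 had a negative relation in air, with r = −0.70 (permutation p = 0.0158, adjusted p = 0.356) and rho = −0.65 (permutation p = 0.0375, adjusted p = 0.562), and r = −0.64 without 2 samples. In smoke their r was 0.24 (permutation p = 0.429, adjusted p = 0.866) and rho was 0.12 (permutation p = 0.708, adjusted p = 0.929), and the difference between the groups was not tested. Sat1 had only 4 to 18 counts per sample, and its coefficient of variation in air was 32.6%, against 35.4% from counting alone.

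**Figure D4:**
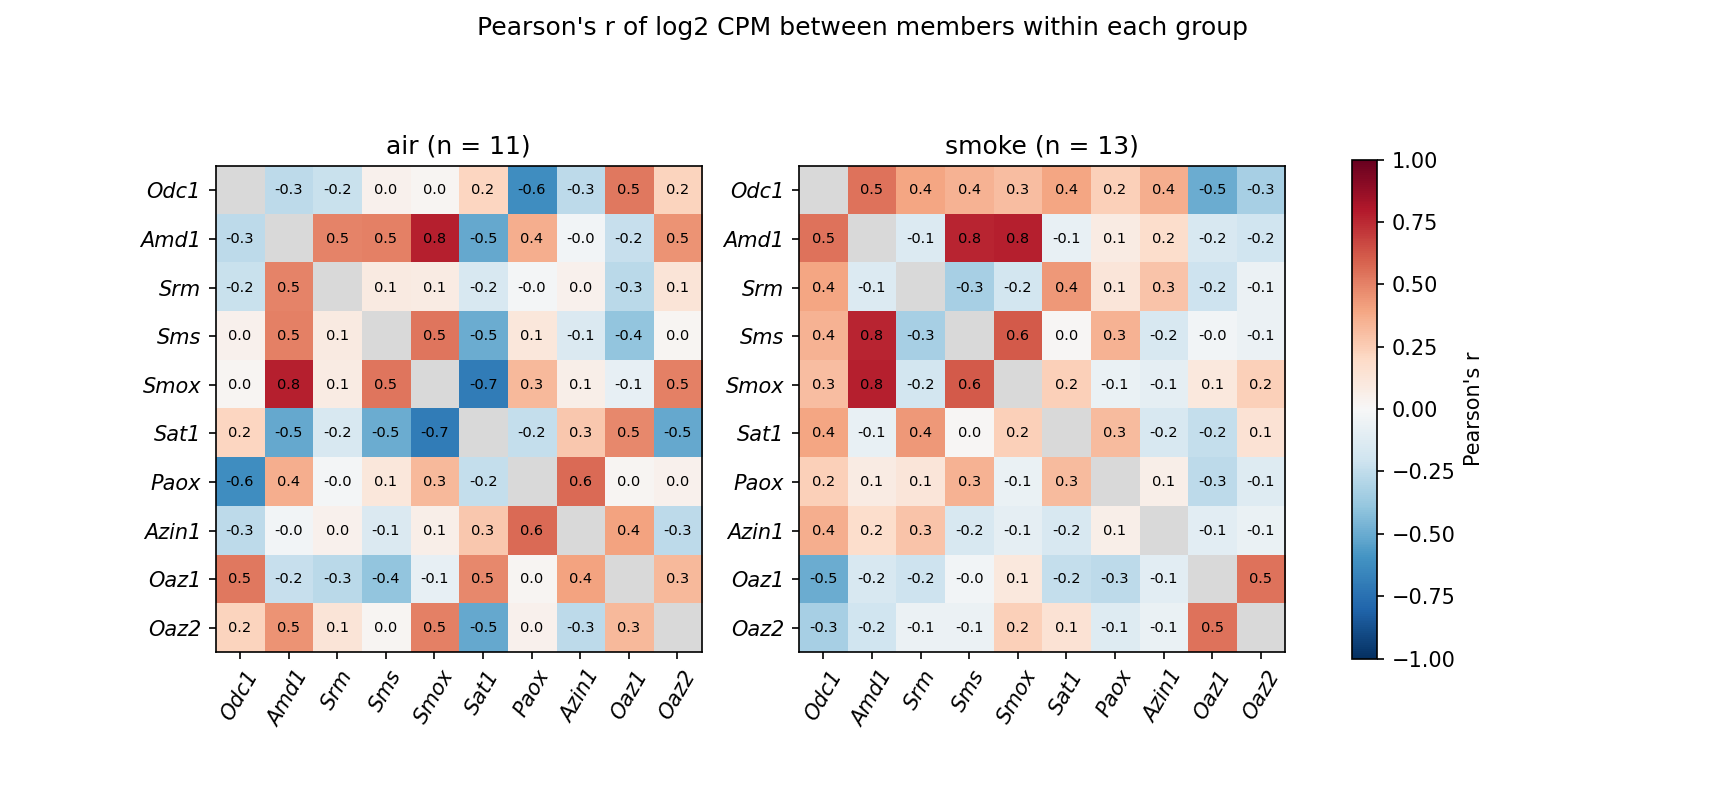
Pearson's r of log2 CPM between each pair of members in air (left, n = 11) and in smoke (right, n = 13), from −1 in blue to 1 in red. Amd1 with Smox stood at 0.78 in both groups, and none of the 90 values passed adjustment.

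For each called member, the genes outside the pathway that varied most like it were found by Pearson's r of deviations from the group means over all 24 samples, given here as a description. For Smox these were Phka1, a subunit of phosphorylase kinase in muscle (r = 0.80), C2cd2 (r = 0.77) and Aptx, a DNA repair enzyme (r = 0.77). Odc1 was most like Bad, a pro-apoptotic BCL2 relative (r = 0.75), Nudt16l1 (r = 0.68) and Gm5262 (r = 0.66). Oaz2 was most like Cndp2, a dipeptidase (r = 0.74), Mdm2, the ubiquitin ligase of p53 (r = 0.69), and Ppp2r2a, a subunit of protein phosphatase 2A (r = 0.67). None of these 9 genes was called between smoke and air, with log2 fold changes from −0.11 to 0.078 (edgeR adjusted p from 0.612 to 0.973).

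A wider list of 36 related genes covered paralogs of members, the supply of ornithine and S-adenosylmethionine, methionine salvage, hypusination and transport. Of these, 21 passed the filter on low counts, and 0 were called by edgeR, with 4 at an unadjusted p under 0.05, beside 1575 of the 10159 tested genes. DESeq2 called 1, Slc7a2. Positive fold changes numbered 15 and negative ones 6, and the median log2 fold change was 0.060. The other 15 genes were under the filter and were not tested.

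Slc7a2, a transporter of arginine and other cationic amino acids, came nearest to the threshold. It averaged 35.4 ± 7.55 CPM under air and 43.9 ± 5.16 CPM under smoke, and 12 of the 13 smoke values exceeded the mean of air. The log2 fold change was 0.31 with SE 0.092 (edgeR adjusted p = 0.0699). It was called when air replicate 5 or smoke replicate 1 was left out. Also in the supply group, Oat, which interconverts ornithine and glutamate semialdehyde, stood at a log2 fold change of 0.058, with an edgeR adjusted p of 0.802. In transport, Slc22a2, an organic cation transporter, had 0.52 (SE 0.22, edgeR adjusted p = 0.236) and Slc47a1, a cation exporter, had 0.20 (SE 0.10, edgeR adjusted p = 0.352).

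In methionine salvage, which recycles the by-product of aminopropyl transfer, Apip averaged 64.8 ± 4.34 CPM under air and 56.8 ± 6.07 CPM under smoke. Its log2 fold change was −0.19 with SE 0.062 (edgeR adjusted p = 0.104), and Adi1 had −0.14 (edgeR adjusted p = 0.515). The paralogs Azin2 and Sat2 had log2 fold changes of 0.27 (SE 0.12, edgeR adjusted p = 0.260) and 0.22 (SE 0.14, edgeR adjusted p = 0.489). In hypusination, the spermidine-dependent modification of the translation factor Eif5a, the enzyme Dohh had −0.11 (SE 0.069, edgeR adjusted p = 0.485) and Eif5a itself 0.060 (SE 0.062, edgeR adjusted p = 0.705).

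**Figure D5:**
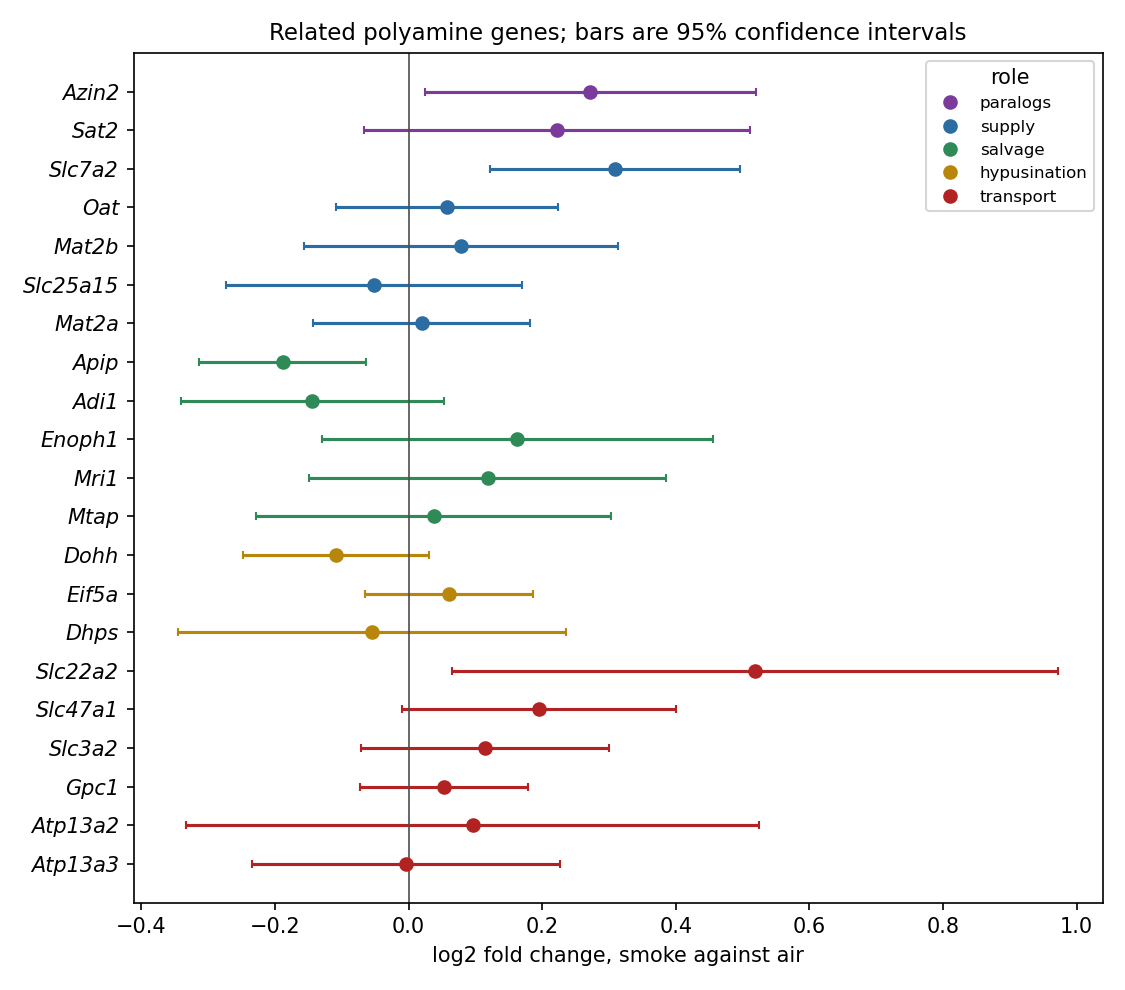
Log2 fold change, smoke against air (horizontal axis), with 95% confidence intervals from edgeR for the 21 related genes that passed the filter, coloured by role and ordered by p within a role. None passed the threshold, and Slc7a2 (0.31) was nearest to it.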

How the data were processed

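The deposited values are raw read counts, with 1 row for each Ensembl gene, from QuantSeq 3′ forward libraries, per the labels' protocols. The submitters' processing notes name STAR, DESeq2 and the build mm9 without roles, and strand use and the annotation counted with are not given in the sources used here. All samples were read on lane 6, with sample sheet numbers 229 to 241 for smoke and 242 to 252 for air, so sheet position and group cannot be told apart. Symbols and coordinates came from GENCODE for GRCm38, which named 47224 of 47643 IDs (99.1%), and promoters from RefSeq.

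Counts were fitted with edgeR 4.0.16 in R 4.3.3 (filterByExpr by group with a minimum count of 10, TMM, quasi-likelihood F-test, smoke against air, 24 samples, no covariate) and p-values were adjusted by Benjamini-Hochberg over all 10159 tested genes. The procedure was tested on simulated data. Log2 CPM used a prior count of 2, and permutation tests were two-sided with 100000 resamples, adjusted within each family. The blood and myelin scores are mean log2 CPM of marker genes, and the clock index is the difference between such means, as given above. The 10 members, the related genes, marker lists and tests were chosen with earlier results of these data known, and the relations of members to the clock index and the myelin covariate were added after these values were seen. Genes named were the members, the 2 related genes of smallest p in each role and the 3 genes most like each called member. Nothing in the labels pairs samples or says more than that they are separate samples, so p-values measure the spread between them. Of 133 pairs of libraries within groups none agreed within sampling noise (chi-square per degree of freedom 2.52 to 18.5).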

Additional observations from a re-analysis of the deposited data

How the results depend on the processing

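The numbers of calls over all genes and over the members stayed within 1.5 times of those reported under RLE scaling, voom, no filter and removal of the 10 most abundant genes. Odc1 lost its call by voom (edgeR's 0.0417 became 0.0518 by limma) and without a filter (edgeR adjusted p = 0.0656). DESeq2 called 323 genes in place of 195, with the same 3 members, and 1 related gene in place of 0. With the clock index as a covariate edgeR called 53 genes and 0 members (3 of 10 members and 1518 of 10159 genes at an unadjusted p under 0.05). The blood score gave 56 genes and 0 members (4 of 10 members and 1241 of 10159 genes at an unadjusted p under 0.05), and the myelin score 68 genes and 1 member, Smox. The cause of these lower counts was not tested. The members Sat1, Oaz1 and Azin1, none of them called, changed sign: Sat1 (to −0.30) and Oaz1 (to 0.055) with the clock index, and Azin1 (to 0.030) with the myelin score. Each of these values was smaller in size than its SE (0.32, 0.16 and 0.14).

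Replicate numbers occur in both groups but do not pair samples. Deviations of 11 same-numbered pairs correlated at a mean r of −0.0059. With the replicate number as a block, 138 genes and the same 3 members were called. Leaving out each sample in turn gave 141 to 254 genes, 2 to 3 members and 0 to 1 related genes. Sat1 fell under the filter in 6 of these 24 fits and under the block, and DESeq2 gave it no adjusted p. No member was under the filter in the reported fit, so the permutation test planned for such members was not run. A prior count of 0.5 gave 0 correlations past adjustment, as reported. Srm and Sat1 rest on the fewest counts of the members.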
